A study of Bos taurus with 6 samples.

Results

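BOLA (ENSBTAG00000022590), JSP.1 (ENSBTAG00000020116), OR12D2 (ENSBTAG00000040188), BLA-DQB (ENSBTAG00000019588) and BOLA-DQB (ENSBTAG00000021077) are genes of the bovine leukocyte antigen complex, the major histocompatibility complex of cattle. They are 5 of the 24579 genes with a deposited count. They were selected on their measured expression, being genes of this complex that the study lists as differentially expressed between the same heifers, so their differences between groups are given as a description with no test. The identifiers come from the study's own gene lists.

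RNA sequencing was done on mammary gland biopsies of Holstein heifers at day 21 of their first lactation. The 3 heifers 9196, 9203 and 9204 had been heat stressed in utero (IUHT-H), their dams having shade only, whereas the 3 heifers 9202, 9214 and 9223 had been cooled in utero (IUCL-H), their dams having shade, fans and water soakers. The maternal treatment covered the last 6 to 7 weeks of fetal life, and after birth all heifers shared housing, diet and vaccinations. A further IUCL-H of the study was not analysed here. Sires, kinship and leukocyte antigen haplotypes of the heifers are not given in the sources used here, so with 3 heifers a group inherited differences between heifers and the maternal treatment cannot be told apart.

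Class I molecules of the complex sit on nearly all nucleated cells and present peptides from inside the cell to cytotoxic T cells, whereas class II molecules sit mainly on antigen-presenting cells and show peptides taken up from outside to helper T cells. Cattle differ strongly from one another in this complex, both in the alleles of each gene and in which class I and DQ genes a chromosome carries. The class I genes also resemble each other closely in sequence, as do the DQ beta chain genes, so a read from one may be assigned to another or discarded. How such reads were treated in counting is not given, and the level of each of these genes is uncertain for that reason.

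BOLA and JSP.1 both encode class I heavy chains, the peptide-binding chains of the class I molecule. The genes were placed in RefSeq gene order by symbol alone (assembly ARS-UCD2.0, used for names and order only). No Ensembl identifiers were given there, so the place of each counted gene is uncertain. By symbol, all 5 genes lie on the same chromosome, with JSP.1 and BOLA separated by only 4 genes, of which 1 is protein coding. OR12D2, an olfactory receptor gene, follows 36 genes beyond BOLA, and 13 genes of that chromosome, OR12D2 included, have OR12D symbols in the table. On the other side of JSP.1, 151 genes away, lies BLA-DQB, listed there as BOLA-DQB1, and BOLA-DQB lies next to it with only BOLA-DQA5 in between. Both encode DQ beta chains, which pair with DQ alpha chains to form a class II molecule.

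Values are CPM, counts scaled to a common library size, after TMM normalization in edgeR. The 3 IUHT-H libraries held 75754791 to 84969285 counts and the 3 IUCL-H libraries 91696849 to 101361294. Every IUHT-H total was thus smaller than every IUCL-H total. The library sizes used for CPM, after TMM, overlapped between the groups. On that scale 3 counts were 0.0320 to 0.0435 CPM in IUHT-H and 0.0298 to 0.0342 CPM in IUCL-H. CPM is not corrected for gene length and compares heifers within a gene, not genes with each other.

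BOLA was low in all 3 IUHT-H. Its level was 119.8, 94.0 and 90.4 CPM in IUCL-H 9202, 9214 and 9223, against 23.8, 13.3 and 18.2 CPM in IUHT-H 9196, 9203 and 9204. The groups did not overlap, and the highest IUHT-H lay 3.80-fold below the lowest IUCL-H. The means were 101.4 ± 16.0 CPM in IUCL-H and 18.4 ± 5.25 CPM in IUHT-H (SD, n = 3 each), a log2 fold change of -2.46 for IUHT-H over IUCL-H, or 5.50-fold lower.

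JSP.1 differed in the opposite direction. Its level was 33.0, 9.04 and 10.7 CPM in IUCL-H 9202, 9214 and 9223, against 115.6, 52.9 and 120.6 CPM in IUHT-H 9196, 9203 and 9204. The groups again did not overlap, but the nearest heifers, IUHT-H 9203 and IUCL-H 9202, were only 1.60-fold apart. The means were 17.6 ± 13.4 CPM in IUCL-H and 96.3 ± 37.7 CPM in IUHT-H (SD, n = 3 each), a log2 fold change of 2.45, or 5.48-fold higher. The size of this difference depended on heifer 9202, whose JSP.1 level was 3.65-fold that of 9214 and 3.08-fold that of 9223, and without it the log2 fold change was 3.29.

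**Figure D1:**
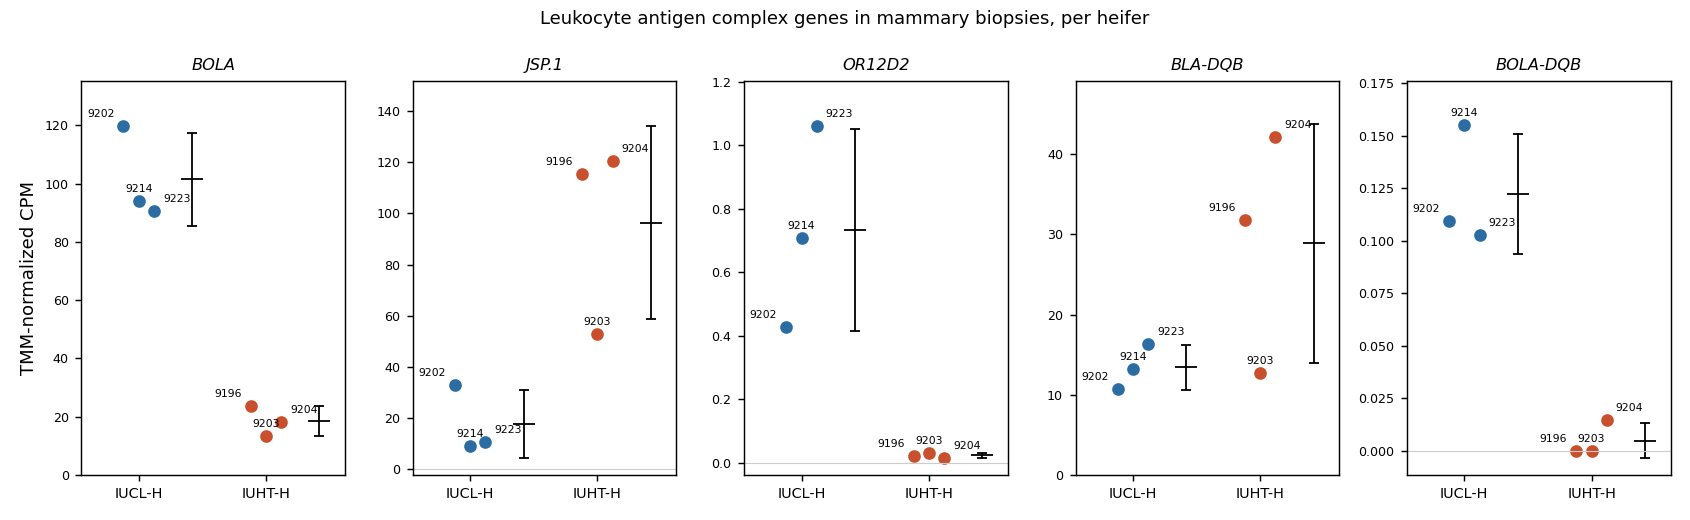
TMM-normalized CPM of the 5 genes (vertical axes, linear, with a separate range for each gene) in each heifer, labelled by number, in IUCL-H (blue) and IUHT-H (orange), with the mean and SD of 3 heifers as a black bar beside the points. BOLA, OR12D2 and BOLA-DQB are low and JSP.1 is high in all 3 IUHT-H, whereas BLA-DQB of IUHT-H 9203 (12.8 CPM) lies among the IUCL-H.

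The opposite differences of BOLA and JSP.1 were followed in each heifer as the ratio of their counts and as their sum. The ratio of BOLA to JSP.1 was 3.63 in IUCL-H 9202, 10.4 in 9214 and 8.45 in 9223. In IUHT-H it was 0.206 in 9196, 0.252 in 9203 and 0.151 in 9204. Thus BOLA held more counts than JSP.1 in each IUCL-H and fewer in each IUHT-H, and since both counts come from the same library, the ratio does not depend on normalization. On the log2 scale the ratio averaged 2.77 ± 0.80 in IUCL-H and -2.33 ± 0.37 in IUHT-H (SD, n = 3 each), a difference of -5.11 for IUHT-H minus IUCL-H. Leaving out any heifer kept this difference between -5.56 and -4.80.

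As a share of the counts of both genes, BOLA took 78.4% in IUCL-H 9202 (exact 95% binomial interval 77.8 to 79.1%), 91.2% in 9214 (90.6 to 91.8%) and 89.4% in 9223 (88.8 to 90.0%). Its share in IUHT-H was 17.1% in 9196 (16.4 to 17.7%), 20.1% in 9203 (19.1 to 21.1%) and 13.1% in 9204 (12.4 to 13.8%). These intervals cover counting error only, and reads of 1 fragment or PCR copies are not independent molecules. No heifer had a share between 20.1% and 78.4%. Each heifer had at least 816 counts of each gene, so reads were assigned to both genes in every library.

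The sum of BOLA and JSP.1 showed no such separation. It was 152.8, 103.0 and 101.1 CPM in IUCL-H 9202, 9214 and 9223, and 139.3, 66.2 and 138.8 CPM in IUHT-H 9196, 9203 and 9204. IUHT-H 9203 had the lowest sum and IUCL-H 9202 the highest, and the other IUHT-H fell between the IUCL-H. The mean sum was 119.0 ± 29.3 CPM in IUCL-H and 114.8 ± 42.1 CPM in IUHT-H (SD, n = 3 each). The log2 difference of -0.11 was smaller than the spread between heifers of a group (pooled SD 0.50 on the log2 scale). Its sign changed to 0.01 with scaling by library size only, to 0.09 without IUCL-H 9202 and to 0.25 without IUHT-H 9203. With 3 heifers a group, the spread leaves room for a sizeable difference in either direction, and a sum that overlapped does not show that total class I expression was alike. Further class I genes that cattle may carry were not analysed here.

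**Figure D2:**
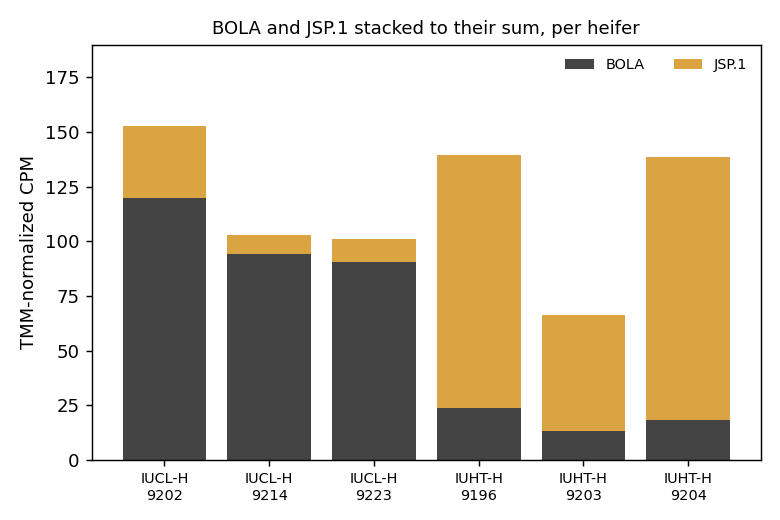
TMM-normalized CPM of BOLA (dark) and JSP.1 (yellow) stacked to their sum (vertical axis, linear from 0) in each of the 6 heifers. BOLA makes up 78.4 to 91.2% of the counts of both genes in IUCL-H and 13.1 to 20.1% in IUHT-H, whereas the heights of the bars overlap between the groups.

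OR12D2 was near the limit of detection in IUHT-H. It had 43, 64 and 93 counts in IUCL-H 9202, 9214 and 9223, against 2, 3 and 1 counts in IUHT-H 9196, 9203 and 9204. These are 0.427, 0.709 and 1.06 CPM in IUCL-H and 0.0222, 0.0320 and 0.0145 CPM in IUHT-H, without overlap. The log2 fold change was -4.88, the lowest of the 14724 genes tested, and -4.96 with DESeq2, but it rests on only 6 counts in IUHT-H. From the summed counts, 200 in IUCL-H and 6 in IUHT-H, the ratio of IUCL-H over IUHT-H was 30.3 (exact 95% interval 13.7 to 83.4, counting error only and not the spread between heifers). Olfactory receptors are known for odor sensing in the nasal epithelium, and even in IUCL-H OR12D2 was a rare transcript, near or below 1 CPM.

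BLA-DQB, the more abundantly counted DQ beta chain gene, lay above every IUCL-H in 2 of the 3 IUHT-H. Its level was 10.8, 13.2 and 16.3 CPM in IUCL-H 9202, 9214 and 9223, and 31.8, 12.8 and 42.2 CPM in IUHT-H 9196, 9203 and 9204. After TMM scaling the groups overlapped, because IUHT-H 9203 lay within the range of the IUCL-H while 9196 and 9204 lay above it. Scaled by total counts alone, 9203 (1198 of 80164187) lay just above the highest IUCL-H, 9223 (1432 of 96982534). The overlap thus depended on the normalization. The means were 13.4 ± 2.79 CPM in IUCL-H and 28.9 ± 14.9 CPM in IUHT-H (SD, n = 3 each), a log2 fold change of 1.11. Its value ranged from 0.73 without IUHT-H 9204 to 1.46 without IUHT-H 9203.

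BOLA-DQB had few counts in any heifer, too few for the main fit. It had 11, 14 and 9 counts in IUCL-H 9202, 9214 and 9223, against 0, 0 and 1 in IUHT-H 9196, 9203 and 9204. A count of 0 allows up to 3 counts, or 0.0333 CPM in 9196 and 0.0320 CPM in 9203, below the IUCL-H mean of 0.122 ± 0.0285 CPM (SD, n = 3). Summed over heifers there were 34 counts in IUCL-H and 1 in IUHT-H, a ratio of 30.9 with an exact 95% interval of 5.18 to 1255, which covers counting error only and not the spread between heifers. The fitted log2 fold change was -4.51, and it was -6.52 without IUHT-H 9204, which held the only IUHT-H count, and -4.01 and -3.98 without 9196 and without 9203. The group means of the DQ genes therefore also lay in opposite directions, but unlike the class I pair they were far apart in counts. BLA-DQB held at least 98.8% of the counts of both in every heifer, so their sum followed BLA-DQB alone. The sum had a log2 difference of 0.95, with groups that overlapped after TMM scaling.

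Of the 5 genes, 3 were lower in IUHT-H without overlap (BOLA, OR12D2 and BOLA-DQB) and 1 was higher without overlap (JSP.1). Over all genes tested, 2.92% were lower and 3.14% higher without overlap. At the study's unadjusted cut-off of 0.01, applied to edgeR's quasi-likelihood test, 3 of the 4 members that passed the filter were called (BOLA, JSP.1 and OR12D2). The background was 0.428% of genes tested, 0.285% higher and 0.143% lower, and since the members were selected on this contrast nothing is read from their count. After adjustment over all genes tested, 0 genes were below 0.05 in edgeR's quasi-likelihood test, with 374 below 0.05 before adjustment. As shares of the genes tested, these 374 and the 0.428% called at 0.01 were below the cut-offs themselves. Such shares would be reached on average with no differences at all. After adjustment, edgeR's exact test gave 9 genes, its likelihood ratio test 11 and DESeq2 16. All such p-values weigh a difference between groups against the spread between these 6 heifers, which the fits estimate partly from other genes.

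The spread between heifers of the same group enters the study's test together with the difference between groups, so it is given as a description. The SD of log2 CPM within groups was 0.33 for BOLA, 0.49 for OR12D2, 0.67 for BLA-DQB and 0.86 for JSP.1, where the median over all genes tested was 0.23. BOLA lay at the 69.5 percentile of this spread, OR12D2 at the 84.6, BLA-DQB at the 92.2 and JSP.1 at the 95.7. For OR12D2 part of the spread is counting error. JSP.1 varied in both groups, 3.65-fold between the lowest and highest IUCL-H and 2.28-fold between the lowest and highest IUHT-H, whereas BLA-DQB varied mainly in IUHT-H (3.30-fold, against 1.52-fold in IUCL-H).

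**Figure D3:**
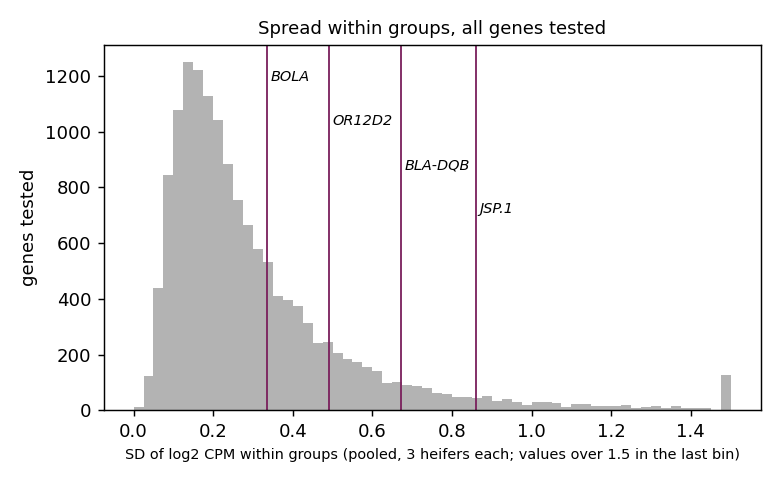
Number of genes tested (vertical axis) by the SD of their log2 CPM within groups (horizontal axis, pooled over both groups of 3 heifers, with values over 1.5 in the last bin). Vertical lines mark BOLA (0.33), OR12D2 (0.49), BLA-DQB (0.67) and JSP.1 (0.86), all to the right of the median of 0.23.

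The 3 IUHT-H were not alike in these genes, nor were the 3 IUCL-H. Over the 4 members that passed the filter, the root mean square difference in log2 CPM was 0.313 between IUHT-H 9196 and 9204 and 0.345 between IUCL-H 9214 and 9223. IUHT-H 9203 and IUCL-H 9202 stood apart from the other heifers of their groups, by 0.973 to 1.11. IUHT-H 9203 had the lowest JSP.1 and BLA-DQB of its group, and IUCL-H 9202 the highest JSP.1. Pairs of heifers from different groups differed by 2.23 to 3.28, a separation that the selection of the genes favours. Over all genes tested, the difference was 0.501 to 0.655 for pairs within groups and 0.492 to 0.674 for pairs between groups, so the heifers did not separate by group over the whole transcriptome. The smallest, 0.492, was between IUCL-H 9202 and IUHT-H 9203.

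**Figure D4:**
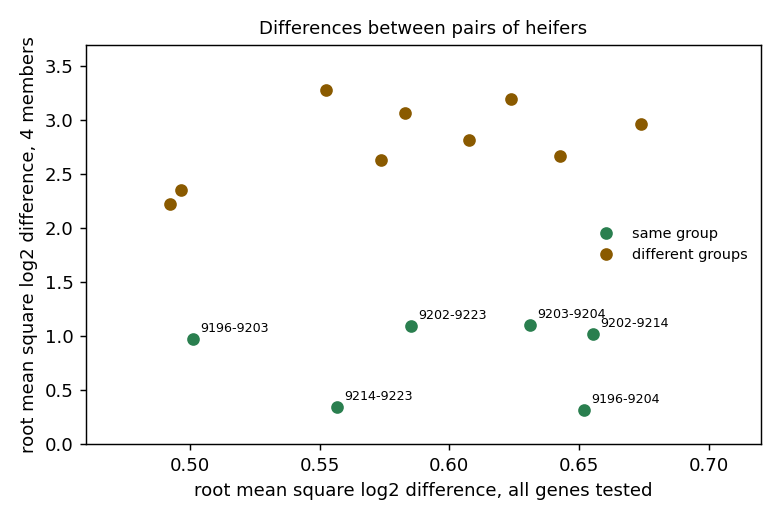
Root mean square difference in log2 CPM between each of the 15 pairs of heifers over BOLA, JSP.1, OR12D2 and BLA-DQB (vertical axis) and over all genes tested (horizontal axis), for pairs of the same group (green, labelled by heifer) and of different groups (brown). Over the 4 genes, pairs within a group differ by 0.313 to 1.11 and pairs between groups by 2.23 to 3.28, whereas over all genes both kinds of pair share the same range.

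Across the 6 heifers, log2 CPM of BOLA and JSP.1 had a Pearson r of -0.78, BOLA and OR12D2 of 0.93, and JSP.1 and OR12D2 of -0.94. BLA-DQB had r = 0.69 with JSP.1, -0.56 with BOLA and -0.66 with OR12D2. These values describe 6 points in 2 separated groups and mainly restate the differences between groups. Of the other genes tested, those most like BOLA were ENSBTAG00000027665 (r = 0.993), INSC (0.984) and ENSBTAG00000047702 (0.977), and those most opposed were ENSBTAG00000020229 (-0.976), ENSBTAG00000013309 (-0.967) and ENSBTAG00000001282 (-0.966). JSP.1 was most like PROM2 (0.993), ENSBTAG00000012817 (0.993) and ENSBTAG00000007559 (0.991), and most opposed to ENSBTAG00000016331 (-0.993), ENSBTAG00000009879 (-0.986) and ENSBTAG00000012141 (-0.985). Like JSP.1, PROM2 was higher in IUCL-H 9202 (3.90 CPM) than in 9214 and 9223 (2.43 and 2.35 CPM), and lower in IUHT-H 9203 (4.20 CPM) than in 9196 and 9204 (5.46 and 5.70 CPM). OR12D2 was most like ARHGEF26 (0.997), ENSBTAG00000006939 (0.969) and ENSBTAG00000047702 (0.966), and BLA-DQB was most like ENSBTAG00000037832 (0.977), ENSBTAG00000047550 (0.974) and ENSBTAG00000003960 (0.970). Genes with r of at least 0.95 numbered 7 for BOLA, 32 for JSP.1, 12 for OR12D2 and 8 for BLA-DQB, of 14723 compared. Over 6 points and so many genes, r this high also arises among unrelated genes, so nothing is read from these counts. The genes named, PROM2 included, were picked for their r, so their likeness to a member is a description only.

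Named genes of the same chromosome were examined for differences beside the members. Of the neighbours listed, 11 had an identifier, and all were tested. Of these, 5 are in the study's list of differentially expressed genes, and 4 of them were called at the cut-off here, on the contrast by which the study had selected them. LOC615223, 19 genes from BLA-DQB toward JSP.1, had 19, 0 and 0 counts in IUCL-H 9202, 9214 and 9223, against 588, 2 and 1442 counts in IUHT-H 9196, 9203 and 9204. It was thus high in the same IUHT-H in which BLA-DQB was high, 9196 (6.53 CPM) and 9204 (20.9 CPM), and nearly uncounted in 9203 (0.0213 CPM). IUHT-H 9203 lay within the range of IUCL-H, and the log2 fold change of 7.06, the highest of all genes tested, depended on single heifers. It was 5.60 without IUHT-H 9204 and 12.62 without IUCL-H 9202, which held the only IUCL-H counts, so that the last value depends on the small count that the fit adds.

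LOC616942, 38 genes from JSP.1, had 3.52, 4.10 and 4.35 CPM in IUCL-H and 7.24, 8.16 and 5.07 CPM in IUHT-H, without overlap and with a log2 fold change of 0.78. Here 9203 was the highest of the IUHT-H, not the lowest. Farther out, ABCC10, an efflux transporter of the ABC family 136 genes from BOLA-DQB, had a log2 fold change of -0.46 (SE 0.12). SLC22A23, of the organic ion transporter family and 594 genes from OR12D2, had a log2 fold change of -0.79 (SE 0.22). The fifth of the study's list, the histone gene HIST1H2AC, 349 genes from OR12D2 and named here after its value was seen, was at 3.47, 4.05 and 18.7 CPM in IUCL-H 9202, 9214 and 9223 and 2.32, 1.17 and 3.03 CPM in IUHT-H 9196, 9203 and 9204. Its groups did not overlap, but it was not called, and its log2 fold change of -2.01 became -0.80 without IUCL-H 9223. The number of neighbours called fell from 4 to 1 or 2 when any heifer was left out, and to 2 with scaling by library size only. It was 5 with edgeR's exact or likelihood ratio test and 3 with DESeq2.

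The other 6 neighbours took their identifiers from the study's methylation list, not from its expression list. Of these, 0 were called by edgeR's quasi-likelihood, exact or likelihood ratio test or by DESeq2. Only 0.428% of all genes tested were called by the quasi-likelihood test, so nothing is read from 0 calls among 6 genes. PBX2, a homeodomain transcription factor gene that lies 23 genes from BLA-DQB, was at 17.6 ± 2.07 CPM in IUCL-H and 18.4 ± 4.22 CPM in IUHT-H (SD, n = 3 each), a log2 fold change of 0.07 (SE 0.18). ANKS1A, 316 genes from BOLA-DQB, was at 17.2 ± 1.49 and 17.7 ± 0.90 CPM, a log2 fold change of 0.04 (SE 0.11). At an unadjusted p below 0.05 there was 1 gene, AGER, the receptor for advanced glycation end products, named here after its value was seen, with a log2 fold change of 0.53 (SE 0.22) and an edgeR adjusted p of 0.999.

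**Figure D5:**
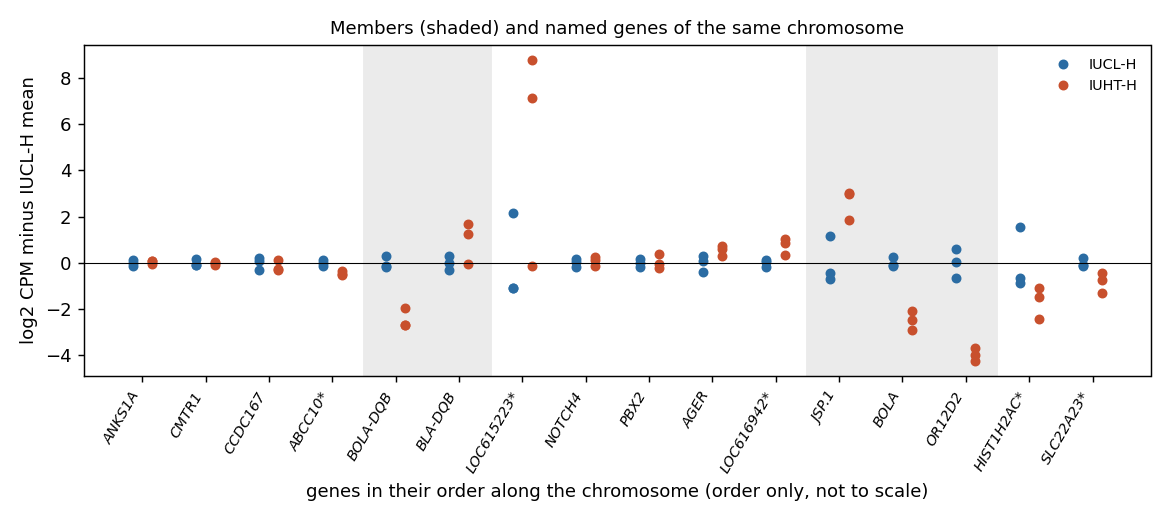
Log2 CPM of each heifer minus the IUCL-H mean (vertical axis) for the 5 members (shaded) and 11 neighbours in their order along the chromosome (horizontal axis, order only), with IUCL-H in blue and IUHT-H in orange. An asterisk marks a neighbour from the study's list of differentially expressed genes. Values of low genes are drawn toward each other by an added prior count of 2, and the widest scatter among neighbours is that of LOC615223.

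Of the lists of antigen presentation, interferon response and cell type marker genes, only 4 of 117 symbols had an identifier in the sources used here, and BOLA and BOLA-DQB were among these 4. The other members of those lists, with the markers of mammary epithelium, stroma and endothelium and those of T and B cells and macrophages, were not analysed here, so the tissue label and the cell makeup of the biopsies could not be checked. CIITA, the transactivator that controls class II transcription, was at 10.3, 5.13 and 7.46 CPM in IUCL-H 9202, 9214 and 9223 and 9.81, 6.87 and 6.07 CPM in IUHT-H 9196, 9203 and 9204. Its groups overlapped, with a log2 fold change of 0.00 (SE 0.27, edgeR adjusted p = 0.999), and it was highest in IUCL-H 9202, the heifer with the lowest BLA-DQB.

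JCHAIN, the joining chain of IgA and IgM made by plasma cells and 1 of 22 leukocyte markers listed, was at 37.9, 36.7 and 69.6 CPM in IUCL-H 9202, 9214 and 9223 and 142.4, 223.4 and 81.0 CPM in IUHT-H 9196, 9203 and 9204. It was higher in every IUHT-H, with a log2 fold change of 1.63 (SE 0.39), and it too is in the study's list of differentially expressed genes. Its adjusted p depended on the test, at 0.999 with edgeR's quasi-likelihood test, 0.0584 with its exact test, 0.0554 with its likelihood ratio test and 0.00752 with DESeq2. It was called at the unadjusted cut-off, a call lost without IUCL-H 9202 or without IUCL-H 9214. It was highest in 9203, the IUHT-H with the lowest JSP.1 and BLA-DQB. Its part in the values of the 5 genes was not tested, and in a bulk biopsy fewer cells of a type and less RNA per cell cannot be told apart.

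The part of inherited haplotypes in these values, and that of reads shared between related genes, was not tested. The measurements that bear on either are the shares of BOLA and JSP.1, which lay at 78.4 to 91.2% or 13.1 to 20.1% with no heifer between, their overlapping sums, the very low counts of OR12D2 and BOLA-DQB in the same 3 heifers, and the differences among heifers of 1 group in JSP.1 and BLA-DQB. Selection of the genes on the contrast between these groups favoured the separated shares and the low counts. The same values bear on the maternal treatment, which cannot be told apart from inherited differences here.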

How the data were processed

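The authors checked reads with FastQC, mapped them with TopHat (2.0.13) and, per the labels, counted them with HTSeq, whose settings are not given in the sources used here. The notes name UMD3.1 and the study's methods bosTau7. The deposited values are raw counts per Ensembl gene. Rows with too few counts were removed with filterByExpr (14724 genes kept), and IUHT-H was set against IUCL-H by the quasi-likelihood test of edgeR (4.0.16, R 4.3.3) after TMM scaling, without covariates, adjusting p-values over all genes tested by the Benjamini-Hochberg method. BOLA-DQB came from a fit of the 19443 genes with at least 1 count. Each SE of a log2 fold change is approximate. It is the absolute log2 fold change over the square root of the quasi-likelihood F statistic, not a value given by the fit. The quasi-likelihood fit, but not the other steps, was tested on simulated counts with known changes.

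The members and lists were chosen with earlier results of these data known. Named genes are the members, listed or neighbouring genes called at the study's unadjusted cut-off of 0.01 or among the 3 most abundant of their list, and the 3 genes most like each member. Neighbours are the 10 genes with an identifier on each side of each member, matched by symbol, as far as found. The study's fold changes and P-values were not used. Alternatives were edgeR's exact and likelihood ratio tests, DESeq2 (1.42.0), RLE or library size scaling, other filters, removal of the 10 most counted genes, and removal of each heifer.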

Additional observations from a re-analysis of the deposited data

How the results depend on the processing

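The log2 fold changes of BOLA, JSP.1, OR12D2 and BLA-DQB, the BOLA to JSP.1 ratio and the sums of both pairs moved by less than 1 SD under the alternatives. The SD is each quantity's own pooled spread within groups, so variable genes could move far. JSP.1 (SD 0.86) went from 2.45 to 3.29 without IUCL-H 9202. The sum of BOLA and JSP.1 changed sign in some alternatives. Scaled by total counts alone, BLA-DQB no longer overlapped between the groups. For BOLA-DQB the value ranged from -6.52 to -3.98 when each heifer was left out. Of the neighbouring genes, 4 were called, against 5 with the exact or likelihood ratio test and 3 with DESeq2. The number was 2 with scaling by library size only and 1 to 2 when each heifer was left out. JCHAIN, the only marker gene analysed and itself from the study's list of differentially expressed genes, was called. That call was lost without IUCL-H 9202 or without IUCL-H 9214. Scaling by library size only moved the median log2 fold change of all genes from 0.00 to 0.13 and raised the share of higher genes among those called at the unadjusted cut-off from 66.7 to 81.8%. The number called was 63, against 108 with the exact test, 112 with the likelihood ratio test, 124 with DESeq2, 43 with the filter at 1 CPM in at least 3 heifers, and 38 to 246 when each heifer was left out (246 without IUCL-H 9202, 225 without IUHT-H 9204, 38 without IUCL-H 9214). That filter removed OR12D2 and BOLA-DQB. The interferon list was not run because no symbol had an identifier. Depth limits OR12D2 and BOLA-DQB, at 3 counts or fewer in each IUHT-H.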
